A study of Mus musculus with 4 samples.

Results

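Cells of the buccal mucosa slide that are rich in the simple epithelial keratins *Krt8* and *Krt18* were examined in Xenium in situ data, in which transcripts of a fixed panel of 328 genes are detected by probes, located on the slide and assigned to outlined cells. Members were selected on the transcripts themselves: a cell needed at least 10 transcripts in all, at least 5 of *Krt8* and *Krt18* together, and fewer than 5 of *Krt4* and *Tgm3* together, which are made by maturing oral keratinocytes. By this rule 2379 of 62782 buccal cells were members, which is 3.79% (95% exact binomial interval 3.64 to 3.94). The whole series held 426792 cells with at least 10 transcripts on 4 slides.

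The study asked how far induction of the oral transcription factor PITX1 changes mouse skin, with buccal mucosa as the oral tissue. The buccal slide held male and female mucosa, unwounded, labelled as Control genotype with Vehicle treatment. The other slides held male unwounded dorsal skin, female unwounded dorsal skin and male dorsal skin at day 4 after wounding, each labelled as holding Control and PITX1+ tissue, with Vehicle and Doxycycline. The line carried TRE-*Pitx1* and a *Krt5*-driven rtTA, so that the transgene answers to doxycycline in *Krt5*-expressing keratinocytes, and controls were littermates on normal chow. The labels do not say which section came from which animal or sex, so sections may share an animal, and ages are not given in the labels.

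Buccal tissue carries minor salivary glands beneath its stratified lining. Such glands are built of secretory acini and of ducts lined by simple epithelium, in which KRT8 and KRT18 pair to form the intermediate filaments, and are wrapped by contractile myoepithelial cells that contain smooth muscle actin. Plasma cells in the gland stroma make immunoglobulin A, which the epithelium carries into saliva. The lining itself is made of basal keratinocytes with KRT5 and KRT15 and of suprabasal layers with KRT4. The panel holds genes of keratinocytes, fibroblasts, vessels, nerves, muscle and immune cells, and no gene of the list of gland epithelium (*Krt8*, *Krt18*, *Krt7*, *Krt23*, *Dsg2*, *Sox9*) is a secretory product of acini, so a member could be matched to simple epithelium but not to a named salivary cell.

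Cells joined within 100 µm of each other formed 7 tissue sections on the slide, numbered here by position. Section 1 held 2250 members among 5979 cells, or 37.6% (95% exact binomial interval 36.4 to 38.9), and thereby 94.6% of all members (93.6 to 95.5). Section 7 held 111 members among 11687 cells, or 0.950% (0.782 to 1.14). The other 5 sections held 1, 2, 6, 2 and 7 members among 6733, 15202, 9529, 2449 and 10843 cells, which is at most 0.0817% of any of them. No member lay among the 445 cells outside the sections. These intervals, and all others below, cover counting error only, and cells of a section were not taken as replicates.

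**Figure D1:**
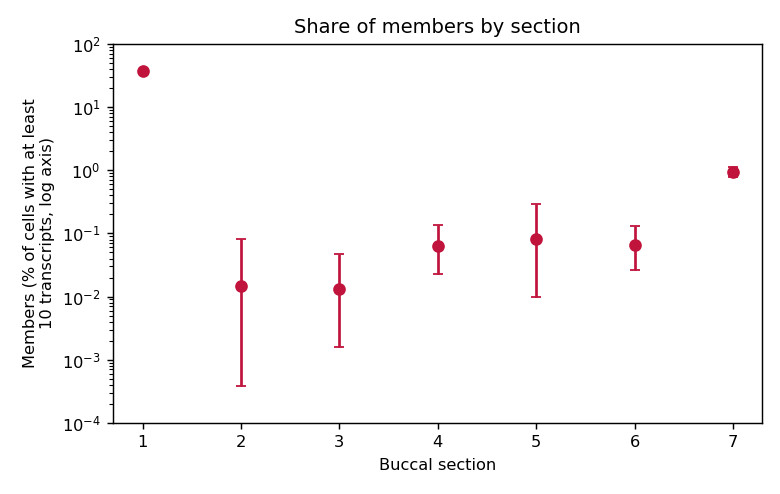
Members as a percentage of the cells with at least 10 transcripts (vertical log axis) in each of 7 buccal sections (horizontal axis), with points for the share and bars for the 95% exact binomial interval. Section 1 stands at 37.6%, section 7 at 0.950% and the rest at or below 0.0817%.

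The members of section 1 and those of section 7 were arranged differently. In section 1, 2247 of 2250 members formed a single mass in which each lay within 20 µm of another, 797 µm wide and 587 µm high, and on average 79.8% of a member's 10 nearest cells were members. The median distance from a member of section 1 to the nearest keratinocyte was 156 µm, and 28 members lay within 25 µm of a keratinocyte. In section 7 all 111 members lay within 25 µm of a keratinocyte, at a median of 6.21 µm, in a strip at the lower end of the lining, and 42.2% of their 10 nearest cells were members. A cell just under the *Krt8* and *Krt18* limit can count as a basal keratinocyte by the rule below. In section 7 all 48 cells with exactly 4 such transcripts and fewer than 5 of *Krt4* and *Tgm3* lay within 20 µm of a member. Their part in these distances was not tested. Within 25 µm of a keratinocyte lay 1 of 1 member of section 2, 0 of 2 of section 3, 6 of 6 of section 4 and 6 of 7 of section 6. Section 5 held no cell that passed the rule for either keratinocyte class.

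**Figure D2:**
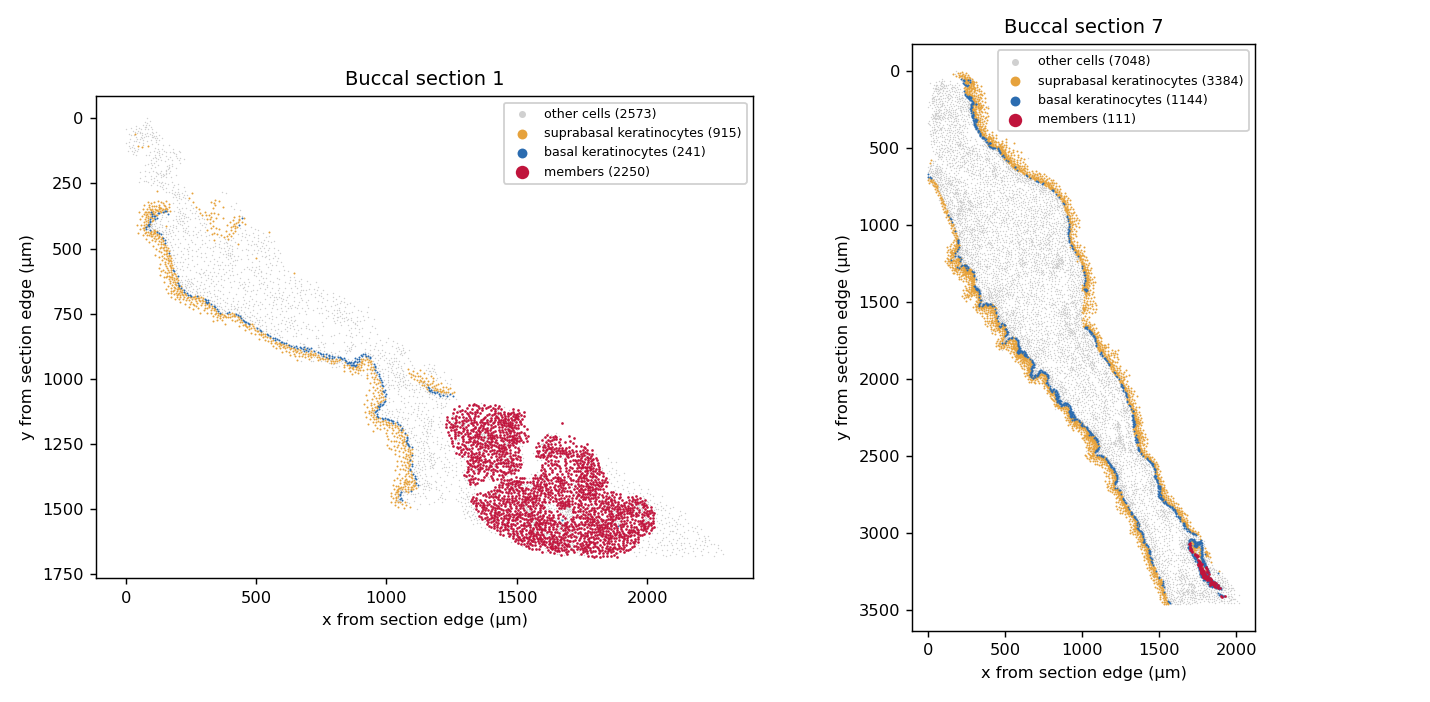
Cell centres in buccal sections 1 (left) and 7 (right), with distances in µm from the edge of each section on both axes. Each point is a cell with at least 10 transcripts: members in red, basal keratinocytes in blue, suprabasal keratinocytes in orange and other cells in grey. The 2250 members of section 1 form rounded lobes set apart from the lining, while the 111 members of section 7 form a strip at the lower end of the lining.

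The limit on *Krt8* and *Krt18* crossed a continuous range in both sections. In section 1, 137 cells had exactly 5 of these transcripts and 137 had exactly 4, and 136 and 135 of them lay within 20 µm of a member. *Plet1* stood at 44351 CPM (transcripts of a gene scaled to the same total in every class of cells) in the cells just inside the limit and at 32890 CPM in those just outside, and *Scd2* at 58154 and 55502 CPM. *Igkc*, an immunoglobulin chain, stood at 11375 CPM just inside and 12608 CPM just outside. In section 7, 22 cells had exactly 5 of these transcripts and 48 had exactly 4, and *Krt7* stood at 51132 and 51559 CPM in them. A further 20 cells of the slide had at least 5 transcripts of *Krt8* and *Krt18* but also at least 5 of *Krt4* and *Tgm3*, and 17 of those lay in section 7.

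For levels, transcripts were summed over the cells of a class within a section and scaled to CPM over the 322 panel genes that no rule used. Basal keratinocytes were cells with at least 5 transcripts of *Krt5* and *Krt15*, fewer than 5 of *Krt4* and *Tgm3* and fewer than 5 of *Krt8* and *Krt18*, and suprabasal keratinocytes were cells with at least 5 of *Krt4* and *Tgm3* and fewer than 5 of *Krt8* and *Krt18*. Section 1 held 241 basal and 915 suprabasal keratinocytes, and section 7 held 1144 and 3384. The sums behind the levels were 252099 transcripts for members of section 1, 21395 and 145268 for its basal and suprabasal keratinocytes, 12162 for members of section 7, and 92611 and 710019 for the keratinocytes there. A count of 0 therefore allows up to 11.9 CPM in members of section 1 but up to 247 CPM in members of section 7, if 3 counts are taken as the limit. In basal keratinocytes of section 1 this limit is 140 CPM. Levels near or below it there, and the folds over them, rest on a few transcripts. Because the members were chosen by transcripts of the same cells, the differences from keratinocytes are a description and carry no test. Only sections 1 and 7 held at least 20 members, so no gene has more than 2 sections behind it. A fold is the ratio of CPM after 20 CPM was added to each.

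The members of section 7 did not have the profile of those of section 1. In section 7 the members had high levels of several basal and stress genes of stratified epithelium, and low levels of those of its differentiated layers, given below. The rule favours such low levels, as *Krt4* and *Tgm3* are genes of those layers. It left out 17 cells of section 7 that passed on *Krt8* and *Krt18* but had at least 5 transcripts of *Krt4* and *Tgm3*. The part of this limit in the low levels was not tested. *Krt5*, the basal keratin, stood at 85101 CPM against 2019 CPM in the members of section 1, and *Krt15* at 14225 against 7.93 CPM. *Krt17* stood at 76057 against 1111 CPM, *Krt6a* at 23105 against 111 CPM and *Trp63*, a regulator of stratified epithelia, at 10936 against 658 CPM. The desmosomal cadherin *Dsg3* stood at 16856 against 15.9 CPM, and the matrix protein tenascin C (*Tnc*) at 31656 against 71.4 CPM.

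*Krt7*, a keratin of ducts and other simple epithelia, stood at 67012 CPM in the members of section 7 and at 3562 CPM in those of section 1. Conversely, *Epha5* and *Fcgbp* had no transcript in the members of section 7 and 12233 and 22638 CPM in those of section 1, which is at least 49.6-fold and at least 91.8-fold higher. *Vwf* had 1 transcript in section 7, or 82.2 CPM (95% exact Poisson interval 2.08 to 458), against 12551 CPM (12117 to 12996). The smooth muscle genes *Acta2*, *Cnn1* and *Myh11* had no transcript in the members of section 7 and 7077, 4082 and 4780 CPM in those of section 1. The label of salivary gland thus goes against the data in section 7, where the members carried several basal and stress genes of the lining at high levels. They also lay close to cells that passed the keratinocyte rules. Those members are called members of section 7 or *Krt7*-rich cells. The 18 members of sections 2 to 6 together had 1758 transcripts, with *Krt5* at 61433, *Krt17* at 54608, *Krt7* at 38680 and *Fcgbp* at 569 CPM, the last from 1 transcript. The mass of section 1 had low levels of the basal and stress genes named above and is called the gland mass below, after its label.

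Merkel cells, the touch receptor cells of the epithelium, also carry KRT8, KRT18 and SOX2, and are marked by the transcription factor ATOH1. *Atoh1* had 1 transcript in the 2250 members of section 1, or 3.97 CPM (95% exact Poisson interval 0.100 to 22.1), and no transcript in the 111 members of section 7. Of the 18 members of sections 2 to 6, 4 carried *Atoh1*, with 11 transcripts in all. *Sox2* itself stood at 28223 CPM in the gland mass and 17267 CPM in the members of section 7, against 10937 and 9750 CPM in basal and 6072 and 5905 CPM in suprabasal keratinocytes of those sections. No gene of the list of Merkel cells outside the rules reached a 4-fold difference from basal keratinocytes in either section.

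The gland mass was first set against the basal keratinocytes of its own section. There, 43 of 322 genes were at least 4-fold higher in members (13.4%) and 44 at least 4-fold lower (13.7%), counting genes with at least 50 transcripts in the higher class. These shares are the background for the counts of gene groups below, and since the same transcripts chose the members, nothing is read from them. In section 7, 5 genes were higher in members (1.55%) and 36 lower (11.2%). For a call in both sections, a gene had to differ 4-fold in each but needed the 50 transcripts only over both together, so that it could pass on those of section 1. By this rule 7 genes were higher (2.17%) and 31 lower (9.63%). Against suprabasal keratinocytes 59 genes were higher (18.3%) and 61 lower (18.9%) in section 1, 29 (9.01%) and 59 (18.3%) in section 7, and 31 (9.63%) and 39 (12.1%) in both. The median log2 fold over all 322 genes against basal keratinocytes was -0.28 in section 1 and -0.54 in section 7.

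The 7 genes higher than in basal keratinocytes in both sections were *Plet1*, *Wfdc18*, *Arg1*, *Chad*, *Trem1*, *Anxa3* and *Krt7*. *Plet1*, a surface protein of epithelial progenitors, stood at 46613 CPM in members and 140 CPM in basal keratinocytes of section 1, and at 20227 and 1825 CPM in section 7, log2 folds of 8.19 and 3.46. *Anxa3*, an annexin, stood at 16208 and 1729 CPM in section 1 and at 21460 and 3434 CPM in section 7. The arginine-degrading enzyme *Arg1* stood at 18330 and 93.5 CPM in section 1 and at 6742 and 432 CPM in section 7. Suprabasal keratinocytes had it at 19096 CPM in section 1, close to the members, and at 14215 CPM in section 7, above the members. *Wfdc18*, of a family of secreted protease inhibitors, stood at 16755 and 421 CPM in section 1, and in section 7 at 740 and 64.8 CPM, the first from 9 transcripts. *Chad*, a matrix protein, stood at 3856 CPM in members of section 1 with no transcript in the basal keratinocytes there, at least 27.5-fold higher. In section 7 *Chad* rested on 7 transcripts and *Trem1* on 1, so their place among the 7 depends on the added 20 CPM.

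By log2 fold pooled over both sections, which weights section 1 for members and section 7 for keratinocytes, the 12 lowest of the genes lower than in basal keratinocytes in each section were *Mt4*, *Gsdmc*, *Sprr2a3*, *Dsg1a*, *Krt16*, *Fabp5*, *Dsc3*, *Chil3*, *Dsg1b*, *Igfbp2*, *Wnt16* and *Gja1*. *Gsdmc*, a gasdermin, stood at 23.8 against 3739 CPM in section 1 and had no transcript in members of section 7 against 14664 CPM. *Gja1*, a gap junction connexin, stood at 317 against 17621 CPM and at 2302 against 18140 CPM. Against suprabasal keratinocytes the 12 highest, ranked in the same way, were *Wfdc18*, *Plet1*, *Chad*, *Sox9*, *Sorl1*, *Ptprz1*, *Thbs1*, *Anxa3*, *Dsg2*, *Cd63*, *Trem1* and *Timp3*. *Timp3*, an inhibitor of matrix metalloproteases, was highest in section 7, at 19980 CPM in members against 179 CPM, with 3681 against 289 CPM in section 1.

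*Krt7* was higher than in basal keratinocytes within each section, at 3562 against 140 CPM and at 67012 against 8973 CPM. Pooled over both sections its log2 fold was -0.17, as most members lay in section 1, where *Krt7* was low, and most basal keratinocytes in section 7. Levels are therefore given by section throughout. The basal rule lets in cells with 1 to 4 transcripts of *Krt8* and *Krt18*. In section 7, cells with 1, 2, 3 and 4 of these and fewer than 5 of *Krt4* and *Tgm3* had *Krt7* at 30039, 38642, 41110 and 51559 CPM. Their part in the basal levels of section 7, and so in the folds there, was not tested.

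Of the 4 genes of gland epithelium outside the rules, 3 were at least 4-fold higher than in basal keratinocytes in section 1, namely *Krt7*, *Sox9* and *Dsg2*, and *Krt7* alone in section 7. *Sox9*, a transcription factor of ductal and glandular progenitors, stood at 18215 CPM in the gland mass, 1355 in basal and 207 in suprabasal keratinocytes of section 1, and at 5016, 1598 and 185 CPM in section 7. *Dsg2*, the desmoglein of simple epithelia, was alike in both sets of members, at 12904 and 12087 CPM, against 2150 and 3585 CPM in basal keratinocytes. *Krt23* stood at 12285 CPM in the gland mass, 3552 CPM in basal and 16273 CPM in suprabasal keratinocytes.

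A further group set the gland mass apart from the keratinocytes and had lower folds in section 7. *Scd2*, a desaturase of fatty acid synthesis, stood at 71559 CPM in the gland mass and 2571 CPM in basal keratinocytes of section 1, and at 9785 and 3822 CPM in section 7. *Cd63*, a membrane protein of lysosomes and secretory vesicles, stood at 62872 and 7104 CPM in section 1 and at 10114 and 6738 CPM in section 7. *App*, the amyloid precursor, stood at 81282 and 9488 CPM, then at 22940 and 13713 CPM. The sorting receptor *Sorl1* stood at 13959 and 467 CPM in section 1 and at 1480 and 680 CPM in section 7. *Fcgbp*, a mucus-associated protein, had 22638 CPM in the gland mass and 187 CPM in basal keratinocytes of section 1, and *Epha5*, an ephrin receptor, had 12233 and 46.7 CPM there.

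The cadherins of stratified desmosomes went the other way in the gland mass. Of the 8 desmosomal cadherins, 5 were at least 4-fold lower than in basal keratinocytes of section 1 and *Dsg2* alone was higher. *Dsg3* stood at 15.9 against 26128 CPM, *Dsc3* at 83.3 against 31923 CPM and *Dsg1a* at 11.9 against 6824 CPM. In section 7, 3 of 8 were at least 4-fold lower, and *Dsg3* stood at 16856 CPM in members and 22060 CPM in basal keratinocytes.

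Of the 8 genes of basal stratified epithelium outside the rules, 6 were at least 4-fold lower in section 1 and 1 in section 7, and none was higher. *Col17a1*, the collagen of hemidesmosomes, stood at 662 against 39729 CPM in section 1 and at 11429 against 43548 CPM in section 7. All 3 stress keratins were lower in section 1, with *Krt6a* at 111 against 39121 CPM, *Krt16* at 7.93 against 17574 CPM and *Krt17* at 1111 against 86048 CPM. In section 7 *Krt16* alone was lower.

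Against suprabasal keratinocytes, 11 of 13 genes of differentiated stratified epithelium outside the rules were at least 4-fold lower in section 1 and 12 in section 7. Members and suprabasal keratinocytes were split on *Krt4* and *Tgm3*, genes of the same layers, so the rules favour these counts. The cornified envelope protein loricrin (*Lor*) stood at 35.7 CPM in the gland mass and 48435 CPM in suprabasal keratinocytes, and *Sprr3*, another envelope protein, at 47.6 and 73416 CPM. In section 7 *Lor* had no transcript in members and 42334 CPM in suprabasal keratinocytes, at least 172-fold lower. *Mt4*, a metallothionein of stratified epithelium, stood at 3.97 CPM in the gland mass against 22669 CPM in basal and 42501 CPM in suprabasal keratinocytes. *Slpi*, the secretory leukocyte protease inhibitor, was also low, at 202 CPM in the gland mass against 1402 and 57969 CPM. Of the 9 protease inhibitors and genes of mucosal defence, *Wfdc18* and *Fcgbp* were higher than in suprabasal keratinocytes of section 1 and 5 were lower.

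**Figure D3:**
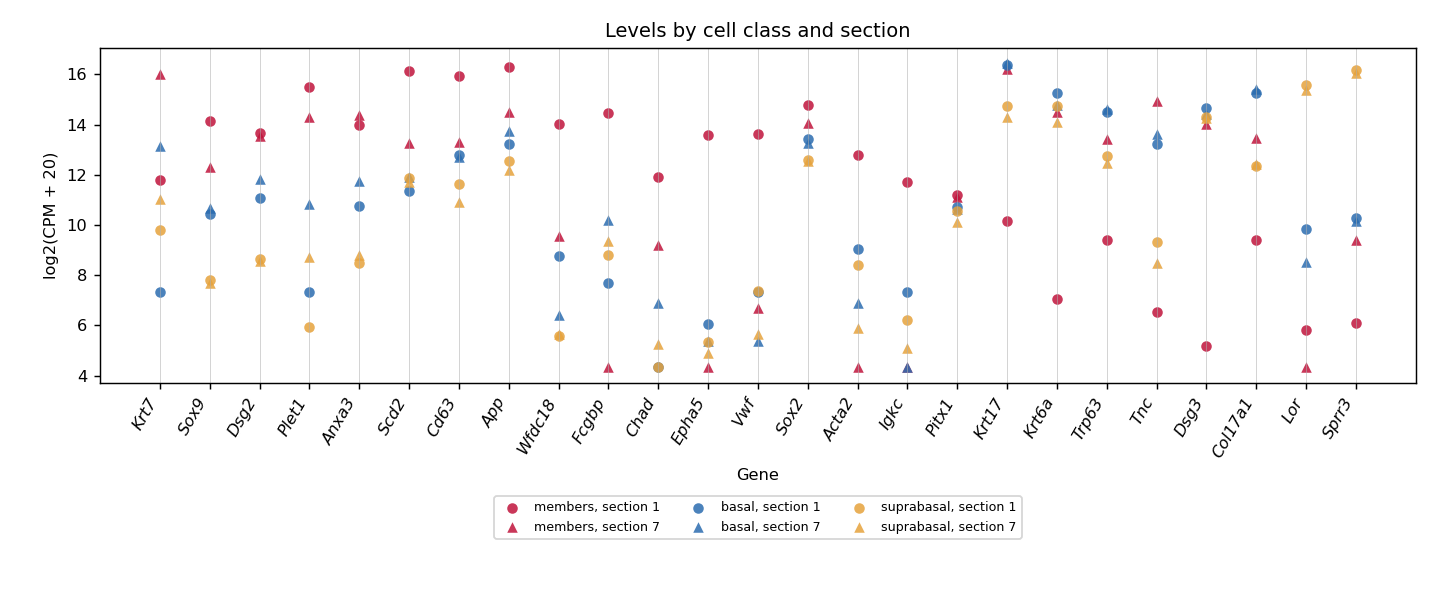
Level of 25 genes as log2(CPM + 20) on the vertical axis, 1 gene per position on the horizontal axis. Red marks members, blue basal and orange suprabasal keratinocytes, with circles for section 1 and triangles for section 7, each a sum over the cells of the class with no error bar. Members of section 1 stand above both keratinocyte classes from *Plet1* to *Vwf* and far below basal keratinocytes from *Krt17* to *Col17a1*, where members of section 7 lie closer to them.

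*Pitx1*, the transcription factor the study induced in skin, was present in the members. It stood at 2344 CPM (95% exact Poisson interval 2159 to 2541) in the gland mass, against 1683 CPM (1179 to 2329) in basal and 1473 CPM (1282 to 1684) in suprabasal keratinocytes of section 1. In section 7 it stood at 2220 CPM (1463 to 3230) in members, 1555 CPM (1311 to 1831) in basal and 1083 CPM (1008 to 1162) in suprabasal keratinocytes. The intervals of members and basal keratinocytes overlapped in both sections, which does not show equal levels. Those of members lay above those of suprabasal keratinocytes in both. Of the 16 transcription factors listed, *Sox9* and *Jun* were at least 4-fold higher than in basal keratinocytes of section 1, and *Trp63* and *Barx2* were lower. *Barx2*, a homeobox factor, stood at 940 CPM in the gland mass but at 16362 CPM in the members of section 7, beside 12994 and 16240 CPM in basal keratinocytes.

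Of 10 cell cycle genes, 5 were at least 4-fold lower in the gland mass than in basal keratinocytes and none higher. The topoisomerase *Top2a* stood at 615 CPM in the gland mass, 7432 in basal and 1521 in suprabasal keratinocytes of section 1, and at 1891 CPM in the members of section 7 against 7634 CPM in basal keratinocytes there.

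Among adhesion molecules of the basement membrane, 3 of 14 laminins, integrins and related collagens were at least 4-fold lower than in basal keratinocytes of section 1 (*Lama3*, *Col7a1* and *Col17a1*) and 2 were higher. The integrin chain *Itgb1* stood at 32809 CPM in the gland mass, 17294 in basal and 2471 in suprabasal keratinocytes. Of 29 genes of WNT, BMP, Notch and Hedgehog signalling, 1 was higher (*Fzd3*, a WNT receptor, at 2269 against 467 CPM) and 4 lower, among them *Wnt4* at 301 against 11779 CPM. Of 13 FGF and IGF genes, *Igf2r*, the receptor that carries IGF2 to lysosomes, was higher at 11841 against 2477 CPM, and 3 were lower, with *Igfbp2* at 401 against 23650 CPM. None of 6 EGF receptors and ligands passed 4-fold in section 1, and the receptor *Erbb3* stood at 9480 against 4767 CPM.

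Of 5 sebaceous genes, *Scd2* alone was higher in the gland mass. Other cell types were checked as well. All 3 genes of myoepithelial or smooth muscle cells and 2 of 4 plasma and B cell genes were higher in section 1 than in basal keratinocytes. *Igkc* stood at 3332 against 140 CPM and *Jchain* at 1107 CPM with no transcript in basal keratinocytes, while the B cell genes *Cd79a* and *Ms4a1* stood at 31.7 and 7.93 CPM in the gland mass. Of 8 vessel genes 2 were higher, of 4 Schwann genes 1 and of 8 fibroblast genes 1, and none of 6 T and NK genes, 9 myeloid genes or the muscle gene *Des*. The part of neighbouring cells in these levels was not tested.

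Within the gland mass, levels varied from cell to cell, and neighbours were alike for some genes. A gene's likeness was measured as the correlation across the 2250 members between a member's scaled level and the mean of its 10 nearest members, for the 75 genes with at least 500 transcripts. The median over those genes was 0.06. The most clustered genes were *Wfdc18* (0.57), *Igkc* (0.56), *Scd2* (0.36), *Vwf* (0.36) and *Thbs1* (0.36), followed by *Timp3* (0.28), *Myh11* (0.25) and *Acta2* (0.23). The points share 1 section and neighbours share cells, so these correlations are descriptions.

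*Wfdc18* was concentrated in a minority of the members. Of the 2250 members, 251 had at least 5 transcripts of it, which is 11.2%, a limit set after the values were seen. Cells of section 1 with exactly 3 and 4 transcripts of *Krt8* and *Krt18*, which are not members, had *Wfdc18* at 43352 and 37824 CPM. Of these, 147 of 151 and 135 of 137 lay within 20 µm of a member. All members of the slide had it at 15916 CPM. The 11.2% is thus a share of members, and leaves out such cells beside them. Leaving out those of the 251 that also passed the limit on smooth muscle genes below, 214 cells had *Wfdc18* at 112362 CPM, against 4814 CPM in the 1764 members that passed neither limit. The limit itself sets this gap, so nothing is read from it. These 214 cells held 2754 of the 4224 *Wfdc18* transcripts in the members of section 1. The other genes highest in these cells were *Wif1*, an inhibitor of WNT ligands, at 4692 against 125 CPM, *Barx2* at 6569 against 245 CPM, *Il34*, a ligand of the CSF1 receptor, at 2285 against 151 CPM, and *Fzd1*, a WNT receptor, at 3182 against 380 CPM. *Fcgbp* was lower in them, at 15830 against 24114 CPM. Genes of immune, stromal and vessel cells went both ways in them. Higher were *Igkc* at 5998 against 3034 CPM, the macrophage complement gene *C1qa* at 898 against 344 CPM, *Cd74*, of antigen presentation, at 1346 against 619 CPM, the fibroblast receptor *Pdgfra* at 979 against 458 CPM and *Pecam1* at 612 against 276 CPM. Lower were the vessel genes *Cdh5* at 81.6 against 167 CPM and *Vwf* at 8486 against 13428 CPM, and the myeloid genes *Lyz2* at 449 against 588 CPM and *Pf4* at 694 against 1005 CPM. The part of such cells in the other differences was not tested. Their depth was close to that of the rest, with a median of 118.5 transcripts per cell against 114.

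Smooth muscle genes marked another minority, in which 272 members (12.1%) had at least 5 transcripts of *Acta2*, *Cnn1* and *Myh11* together. In the 235 of them below the *Wfdc18* limit, *Acta2* stood at 31301 CPM against 3425 CPM in the 1764 others, a gap that the limit sets. Several genes of basal and myoepithelial cells that the limit did not use were higher in those 235 cells too, but not all. *Krt5* stood at 5757 against 1317 CPM, *Trp63* at 2581 against 354 CPM and *Lama3*, a laminin chain, 5.68-fold higher at 3077 CPM. *Col17a1* stood at 2184 against 401 CPM, *Cdh3* at 1621 against 167 CPM, *Dsc3* at 331 against 41.6 CPM and *Postn*, periostin, at 6055 against 640 CPM. *Dsg3* stood at 33.1 against 15.6 CPM, the first from 1 transcript, and *Itga6* at 6551 against 5606 CPM. *Itgb4* was lower, at 6816 against 9363 CPM, and *Krt15* had no transcript, against 10.4 CPM. Several genes of stromal and vessel cells were higher in the same 235 cells, with *Vim*, vimentin, at 3772 against 1270 CPM and the chemokine *Cxcl12* at 2018 against 588 CPM. *Pdgfrb*, a receptor of pericytes and fibroblasts, stood at 893 against 161 CPM, *Pecam1* at 662 against 276 CPM and *Cdh5* at 463 against 167 CPM. Others were not higher, with *Vwf* at 11084 against 13428 CPM, *Mmp2* at 1092 against 1135 CPM and *Lum* at 496 against 494 CPM. The part of such cells in the smooth muscle genes was not tested. The 37 members that passed both limits had 15858 CPM of *Myh11* and 74131 CPM of *Wfdc18*, levels that those limits set.

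*Vwf*, von Willebrand factor, is known as a product of endothelial cells, and its 12551 CPM in the gland mass was set against vessel markers. The 141 members with at least 5 *Vwf* transcripts had *Vwf* at 37575 CPM, a level that this limit sets. In them the endothelial genes *Pecam1* and *Cdh5* stood at 87.8 and 43.9 CPM. The 6093 other cells of the slide with at least 3 transcripts of *Pecam1* and *Cdh5*, called vessel cells here, had *Vwf* at 11755 CPM. They also had the muscle gene *Des* at 128076 CPM, against 2546 CPM in the *Vwf*-rich members, which lowers the share of every other gene in this class, so the levels of *Vwf* are not compared. Among vessel genes that did not select those cells, *Flt1*, a VEGF receptor, stood at 219 CPM in the *Vwf*-rich members and 11612 CPM in the vessel cells, and *Adgrl4*, an endothelial adhesion receptor, at 176 and 12383 CPM. *Lyve1* and *Mmrn1*, of lymphatic vessels, and *Ackr1*, of venules, had no transcript in the *Vwf*-rich members, against 6705, 10033 and 1305 CPM. *Epha5* stood at 11589 CPM in them, beside 12845 CPM in the 1764 members that passed neither limit above. *Des* stood at 2546 against 864 CPM in the same comparison, the largest fold among genes outside the rules with at least 50 transcripts. Those 1764 members still include some of the *Vwf*-rich ones, so the 2 groups overlap. The *Vwf*-rich members were larger and deeper than those 1764 members, as a limit on a count also favours deep cells, with a median area of 134 µm² against 94.6 µm² and a median of 175 transcripts against 114.

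The upper left lobe of the mass differed from the rest in a few genes. By limits set after the map was seen, 320 µm across and 270 µm down from the first member, it held 559 members, and the rest held 1626, with 65 between them left out. *Igkc* stood at 409 CPM in it (95% exact Poisson interval 264 to 603) and 4314 CPM (4019 to 4625) in the rest. *Des*, desmin, stood at 180 against 1324 CPM and *Vwf* at 8612 against 14060 CPM, and 8 members (1.43%) of the lobe had at least 5 *Vwf* transcripts against 132 (8.12%). *Chad* was higher in the lobe, at 5785 against 3263 CPM, and *Top2a* at 1030 against 490 CPM. Over the 138 genes with at least 100 transcripts, *Igkc*, *Jchain* and *Des* had the lowest log2 differences, lobe over rest, at -3.34, -2.95 and -2.75, and *Chad* and *Top2a* the highest, at 0.82 and 1.04. Median depth was 115 and 118 transcripts per cell.

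**Figure D4:**
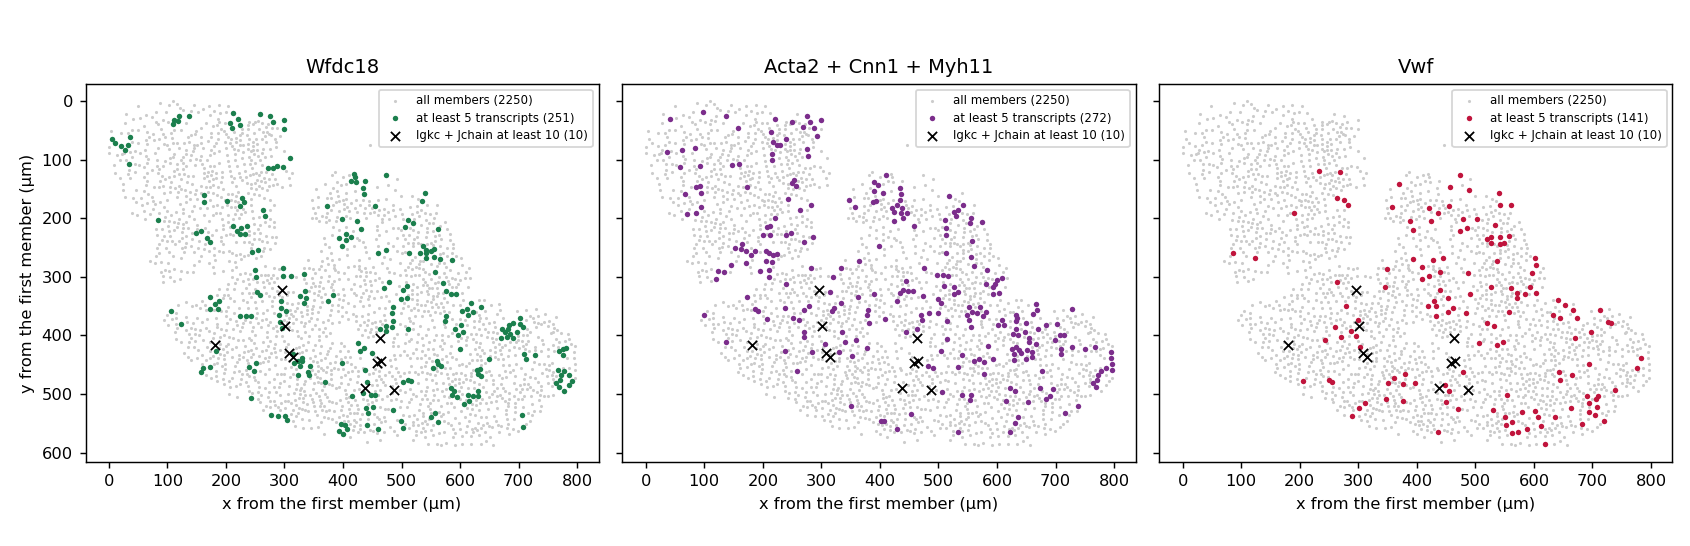
Positions of the 2250 members of section 1 (grey, axes in µm from the first member), with members that had at least 5 transcripts of *Wfdc18* (left, 251 in green), of *Acta2*, *Cnn1* and *Myh11* together (middle, 272 in purple) or of *Vwf* (right, 141 in red). Crosses mark the 10 other cells with at least 10 transcripts of *Igkc* and *Jchain*. *Wfdc18*-rich members lie in small clusters, and *Vwf*-rich members are rare in the upper left lobe.

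Plasma cells were looked for around the members. Section 1 held 10 cells outside the members with at least 10 transcripts of *Igkc* and *Jchain*, the joining chain of secreted immunoglobulin, and all 10 lay within 50 µm of a member. Section 3 held 14 such cells, section 4 held 2, section 5 held 4, and sections 2, 6 and 7 held none. As a share of cells this was 0.167% in section 1, 0.0921% in section 3, 0.0210% in section 4 and 0.163% in section 5, so sections 1 and 5 were alike. None of the 20 outside section 1 lay within 50 µm of a member. Sections 3, 4 and 5 held only 2, 6 and 2 members, so few cells there could lie near one, and no contrast with section 1 is drawn. In the 85 members within 20 µm of such a cell *Igkc* stood at 21487 CPM, and in the 1854 members beyond 50 µm of any at 2204 CPM. *Wfdc18* stood at 19338 and 16518 CPM in the same cells. How much of the *Igkc* assigned to members lies in neighbouring plasma cells was not tested.

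Other cells within 50 µm of a member were compared with those beyond 200 µm, leaving out keratinocytes. In section 1 the 4 plasma and B cell genes summed to 19589 CPM in 773 near cells and 658 CPM in 1377 far cells, a log2 difference of 4.85. In section 7 they summed to 235 CPM in 327 near cells and 176 CPM in 6281 far cells, the first from 4 transcripts. T and NK genes were low everywhere, at 519 against 247 CPM in section 1 and at 470 against 114 CPM in section 7. Smooth muscle and myoepithelial genes were higher near members in section 1 (42375 against 31339 CPM) and lower in section 7 (2818 against 12191 CPM). Myeloid genes also went opposite ways, with log2 differences of -0.30 in section 1 and 0.70 in section 7. Those of vessel genes were -0.76 and 0.06, with little difference in section 7. Fibroblast genes gave -0.47 and -0.08, again with little difference in section 7, and Schwann genes gave -0.22 and -0.65. In section 1, 71.0% of the near cells and 1.60% of the far cells carried a *Krt8* or *Krt18* transcript, and the part of these in the near levels was not tested. With 2 sections the two-sided exact sign-flip test cannot give a p under 0.5, and all 7 lists had a p of 0.5 or 1, with adjusted p of 0.875 or 1 over the 7.

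**Figure D5:**
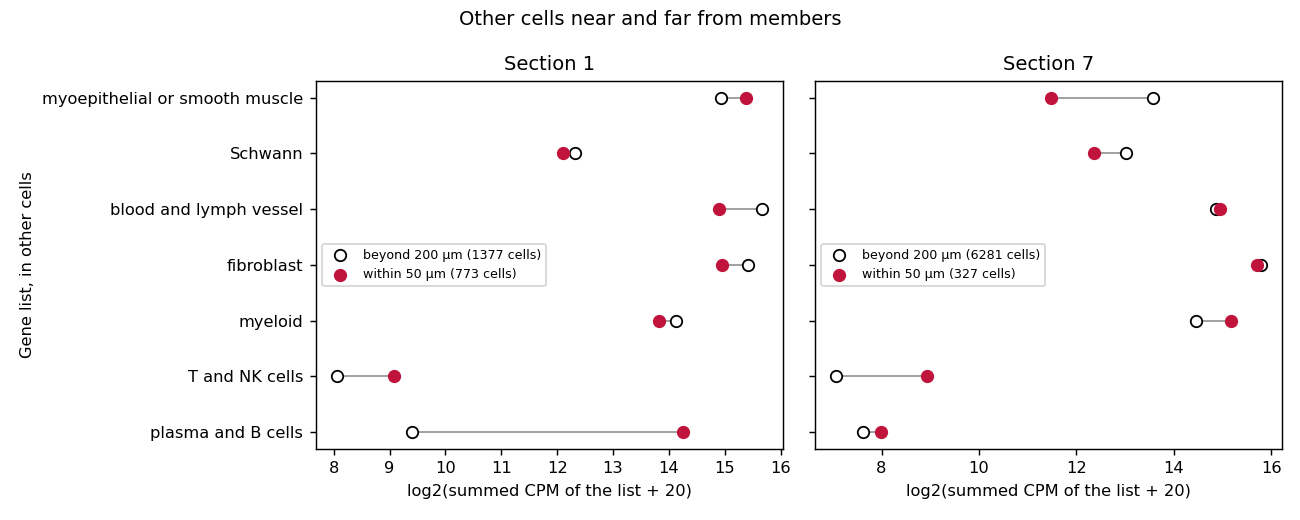
Summed level of 7 gene lists as log2(CPM + 20) (horizontal axis) in cells that are neither members nor keratinocytes, in section 1 (left) and section 7 (right). Filled points are cells within 50 µm of a member, open points cells beyond 200 µm, joined by a line for each list. The widest gap is that of plasma and B cell genes in section 1, with 19589 CPM near and 658 CPM far.

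Members of the gland mass were larger than basal keratinocytes and close in area to suprabasal ones. Their median outlined area was 95.5 µm² against 52.8 µm² in basal and 90.2 µm² in suprabasal keratinocytes of section 1, while the median nucleus was 19.2 µm² against 19.5 and 20.1 µm². In section 7 the members measured 42.4 µm², against 47.1 µm² in basal and 83.4 µm² in suprabasal keratinocytes. The difference in cell area from basal keratinocytes thus had opposite signs in the sections, 42.7 and -4.65 µm² (exact sign-flip p = 1, n = 2 sections). Members of section 1 had a median of 117 transcripts per cell and 127 per 100 µm², and those of section 7 had 127 per cell and 314 per 100 µm².

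On the skin slides the same rule was passed by 101 of 78962 cells of male unwounded skin (0.128%, 95% exact binomial interval 0.104 to 0.155), by 95 of 161614 of female unwounded skin (0.0588%, 0.0476 to 0.0719) and by 506 of 123434 of male wounded skin (0.410%, 0.375 to 0.447). The slides are single samples and differ in depth, with a median of 60, 44 and 59 transcripts per cell against 86 on the buccal slide, so the shares are set side by side without a test. The skin cells that passed had *Krt17* at 98464, 153551 and 101828 CPM in this order. *Vwf* stood at 199, 439 and 144 CPM in them, and *Wfdc18* at 199, 329 and 86.1 CPM, beside 12551 and 16755 CPM in the gland mass. *Fcgbp* had no transcript in the passing cells of the male unwounded slide, and stood at 14708 CPM in those of the female and 163 CPM in those of the wounded slide. *Atoh1* was seen in 0, 3 and 6 of them. With a limit of 10 transcripts of *Krt8* and *Krt18*, 6, 13 and 110 skin cells and 1574 buccal cells passed.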

How the data were processed

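The authors ran Xenium In Situ (10X Genomics) on fixed, paraffin-embedded sections, and deposited for each slide the decoded transcripts and a table of cells. The deposited transcripts carry a quality score, a position in µm and the cell they were assigned to, and the deposited cell tables hold whole-number counts per cell, areas and centroids. The versions of the instrument software and the segmentation settings are not given in the sources used here. Transcripts with a score of at least 20 were kept and counted per cell, and the sums were equal to the deposited count of every cell on all 4 slides. The buccal slide had 8797668 such transcripts, of which 98.35% lay in cells, with a median of 41 to 125 per cell over the sections and 0.0375% control calls.

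Cells within 100 µm were chained, and groups of at least 2000 cells were taken as sections. Transcripts were summed per class and section, and CPM was taken over the 322 genes outside the rules (all but *Krt8*, *Krt18*, *Krt4*, *Tgm3*, *Krt5* and *Krt15*). Named genes were up to 12 in each direction, by pooled log2 fold, among those at least 4-fold different in each section with at least 20 members and with at least 50 transcripts in the higher class over those sections, with the genes of gland epithelium, smooth muscle, Merkel and plasma or B cells, and up to 4 of other lists. Further genes, and those of kinds and lobes, were chosen after their values were seen. Sections were compared by a two-sided exact sign-flip test, with Benjamini-Hochberg adjustment over 7 lists. Intervals at 95% were exact (Clopper-Pearson or Poisson). The members and lists were chosen with earlier results of these data known. Alternatives were other limits, scores, nuclei, scales and distances and leaving out a section. The calls were tested on simulated data. Tests used scipy 1.17.1, tables pandas 2.3.3, numpy 2.4.6 and pyarrow 21.0.0, and plots matplotlib 3.10.9, under Python 3.11.15.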

Additional observations from a re-analysis of the deposited data

Results flagged for a closer look

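The share of members in section 1, 37.6%, stood far from those of the other 6 buccal sections, of which the next was 0.950%. Its gap to the next section was 0.975 of the whole range over 7 sections, above the 95% critical value of Dixon's test, which picks out about 1 in 20 groups by chance. That most members lie in 1 section was known when they were chosen, so this value describes the pattern and is no evidence for it.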

How the results depend on the processing

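The share of members among buccal cells, 3.79%, became 4.44% with at least 3 transcripts of *Krt8* and *Krt18*, 2.51% with at least 10, 4.10% among cells with at least 20 transcripts, 3.51% with no minimum per cell, 3.40% at a quality score of at least 30 and 1.04% over the nucleus alone. The share of members in section 1, 94.6%, became 91.0% with at least 3 transcripts, 97.5% with at least 10, 96.5% at a score of at least 30 and 90.6% over the nucleus. With at least 10 transcripts the shares on the skin slides became 0.00760% (male unwounded), 0.00804% (female unwounded) and 0.0891% (male wounded). The number of sections depended on the chaining distance, with 6 at 50 µm and 7 at 100 µm.

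Against basal keratinocytes the 7 higher genes became 15 at a score of at least 30 and 12 on mean transcripts per cell, and the 31 lower genes became 16 per cell. Against suprabasal keratinocytes the 31 higher genes became 18 over the nucleus and 14 per cell. Leaving out section 1 or section 7 gave 5 to 43 higher and 36 to 44 lower genes against basal keratinocytes, and 29 to 59 and 59 to 61 against suprabasal keratinocytes. Without section 1 a gene needs 50 transcripts in section 7 alone, and 4 of the 7 and 16 of the 31 higher genes were called again. Without section 7, 16 of the 31 genes lower than in basal keratinocytes were called again. With at least 3 transcripts of *Krt8* and *Krt18*, section 6 entered beside sections 1 and 7, so that setting changed the limit and the sections together. In it, 21 of the 31 genes lower than in basal keratinocytes and 20 of the 31 higher than in suprabasal ones were called again. The pooled log2 fold of *Krt7* over basal keratinocytes, -0.17, turned to 1.07 in that setting, 0.86 over the nucleus, 0.26 per cell, and 2.90 to 4.48 with 1 section left out. Of 645 alternatives for the pooled folds of named genes, 639 kept direction and side of 4-fold (for *Krt7*, below it), these 5 turned, and 1 fell below it, *Anxa3* over basal keratinocytes at a log2 fold of 1.998 with at least 10 transcripts. The named genes were picked for the largest pooled folds in these same data. Apart from *Anxa3* and *Krt7* over basal keratinocytes, the smallest was 20.5-fold. Most of the 639 were thus set by the choice of genes, and nothing is read from them.

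The mean log2 difference of myeloid genes near members was -0.0145 within 25 µm, and -0.30 to 0.70 with 1 section left out. Vessel genes gave -0.760 to 0.0626 and smooth muscle genes -2.11 to 0.44 with 1 section left out. The area difference became -17.8 µm² against suprabasal keratinocytes and -4.65 to 42.7 µm² with 1 section left out. Where these turned, the cause was not tested. Alternatives were also added after seeing the data. The section 1 folds of *Vwf*, *Epha5*, *Fcgbp*, *Plet1*, *Scd2*, *Wfdc18*, *Sox9* and *Sox2* kept their side of 4-fold under other scores, scales and limits. Limits of 3 and 10 transcripts gave 16.6% and 5.73% of section 1 members for *Wfdc18*, 22.98% and 3.02% for the smooth muscle genes, and 21.2% and 0.133% for *Vwf*. The 12162 transcripts behind the members of section 7 leave low genes there undetermined. No analysis paired by slide or animal was possible, because no replicate numbers pair the slides and the labels do not name the sections' animals. The sign-flip tests paired classes within a section only.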
